A study of Mus musculus with 4 samples.

Results

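The comparison described here is that of Stat4-/- mice given dextran sulfate sodium (DSS) and LIF with Stat4-/- mice given DSS alone. Its members were the 2 arrays whose titles carry the knockout, 1 with LIF and 1 without, out of the 4 arrays in all. Each array held RNA from lymphocytes of the lamina propria, the layer of connective tissue beneath the gut epithelium, taken on day 10. All mice were C57BL6 and all 4 groups had received DSS, a sulfated sugar polymer that damages the colon epithelium and is used to provoke colitis, so "with LIF" and "without LIF" always mean in addition to DSS. The other 2 arrays came from wild-type mice with DSS and with DSS and LIF, and serve here as a reference for levels. For each group 5 mice were used, and the labels do not say whether their RNA was pooled on the 1 array. Mock-treated mice were not analysed here. The labels give no dose, route or timing of LIF, and do not name the deleted part of Stat4.

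LIF (leukemia inhibitory factor) is a cytokine of the interleukin-6 family. It binds the LIF receptor together with gp130, the chain shared by that family, and signals through Janus kinases to STAT3, whose targets include the feedback inhibitor Socs3. STAT4 is a different factor of the same family, activated mainly by interleukin-12 and needed for Th1 responses. The lamina propria holds T cells, B cells, plasma cells and myeloid cells, beside fibroblasts and vessels, and lies against the epithelium, so a preparation of its lymphocytes can carry RNA of any of these.

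Each group was 1 array, so the differences below cannot be set against a spread between replicates, and p-values are not given. The values are log2 levels, that is the log2 of the processed signal minus the 75th percentile of its array, and a difference is the level with LIF minus the level without. Levels of different probes are not comparable with each other. A gene was measured when both arrays showed its probe well above background, and it was called at a log2 difference of at least 1, which is 2-fold. The LIF array and the DSS array of the knockout were scanned in different sessions, so LIF and scan cannot be told apart. The RNA was of bulk cells, in which fewer cells of a type and less RNA per cell cannot be told apart either.

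The Stat4 probe did not separate the genotypes. It read -0.50 and 0.22 on the log2 scale in wild type without and with LIF, and 0.31 and -0.47 on the arrays labelled knockout without and with LIF. The labelled knockout without LIF thus had the highest value of the 4. It is not known here whether the knockout removed the stretch that the probe reads, so the probe settles nothing about the genotype, and the arrays are called the labelled knockout throughout.

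Both arrays of the labelled knockout were of similar brightness. The 75th percentile of their signals was 45.3 without LIF and 42.9 with LIF, and 44.8% and 45.8% of 39347 probes were well above background. The wild-type arrays stood further apart, with percentiles of 123.3 without LIF and 23.7 with LIF. Markers of leukocytes were present on both knockout arrays. Their differences were 0.06 for Ptprc (CD45, on all leukocytes), 0.44 for Cd3e, 0.22 for Cd4 and 0.35 for Cd8a, but -1.04 for Cd3d. The T cell list as a whole had a median of -0.08. Epithelial Epcam was measured on both arrays as well and was 1.04 higher with LIF, so epithelial RNA was present beside that of lymphocytes.

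Between the arrays of the labelled knockout 9789 genes were measured. Of these 335 (3.42%) were at least 2-fold higher with LIF and 287 (2.93%) at least 2-fold lower, together 622 (6.35%). The median difference of all measured genes was 0.00 with quartiles of -0.29 and 0.33, and 70.7% of genes lay within 0.5 of 0. At least 4-fold differences were seen for 15 genes with higher and 27 with lower levels. The scanner software's own error estimate of a difference had a median of 0.22, which covers error within an array only. In wild type 8963 genes were measured, and 34.9% were higher and 13.5% lower at the same size (48.3% in all), around a median of 0.58. The counts in the labelled knockout changed with the signal and background model used. Normexp is a model that estimates background from all spots. It was run on the median signals less the local background of each spot, rather than on the processed signal. With normexp the counts were 6 higher and 862 lower at an offset of 50, and 446 higher and 2349 lower without an offset. Without the requirement that a probe be well above background they were 2526 higher and 1134 lower.

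**Figure D1:**
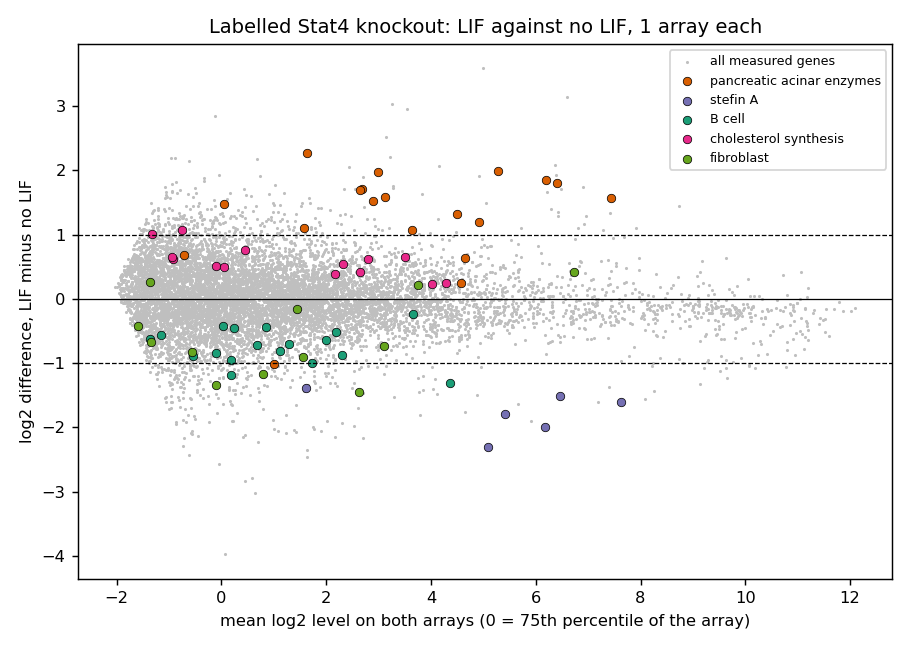
Log2 difference (LIF minus no LIF) of every measured gene in the labelled knockout, on the y axis, against its mean log2 level on both arrays, on the x axis, with 5 gene lists in colour and dashed lines at a log2 difference of 1 and -1. Most genes lie between the dashed lines, the pancreatic enzymes lie mainly above the upper line at all brightnesses, and the 6 stefin A genes lie below the lower line.

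Of 33 measured genes of the LIF pathway lists 1 passed 2-fold, against 6.35% of all measured genes. Lif was at 2.88 and 0.80 in wild type without and with LIF, and at 4.97 and 5.13 in the labelled knockout without and with LIF. Its difference in the labelled knockout was 0.15, while both knockout arrays stood above both wild-type arrays. Of 9 ligands of the interleukin-6 family 5 were measured and none passed 2-fold. Osm, which encodes oncostatin M and shares the gp130 chain, came closest at -0.99, followed by Ctf1 (cardiotrophin 1) at 0.77, Clcf1 at -0.46 and Il27 at 0.22. Il11 and Cntf were well above background only without LIF and were lower with it by 1.92-fold and 1.87-fold or more.

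Among the receptors, Lifr differed by 0.16, Il6ra by 0.11 and Il11ra1 by -0.33. Cntfr, the receptor chain of ciliary neurotrophic factor, was the only measured receptor past 2-fold, at -1.01. The gp130 gene Il6st, Osmr and Il27ra were not well above background on either array, so the shared signalling chain was not read. None of the 8 measured Janus kinases and STAT factors passed 2-fold, and 6 of the 8 were below 0 with a median of -0.37. The lowest values were -0.79 for Stat5b, -0.78 for Stat4 and -0.54 for Stat3, and the others were -0.45 for Stat5a, -0.30 for Jak1, -0.02 for Stat6, 0.01 for Jak2 and 0.27 for Stat2. Stat3 was read by a probe spotted 10 times, and its other measured probe gave a difference of the opposite sign, 0.91. A direction for Stat3 therefore depends on the probe. For Stat5b the other measured probe gave -0.34. The probe that stood for Stat5b read 10.20 and 2.26 in wild type without and with LIF. In the labelled knockout it read 11.52 and 10.73.

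STAT3 response genes were read from 16 of 18 listed members, and 0 passed 2-fold in either direction, against 6.35% of all measured genes. Their median difference was -0.12, with 6 members above 0. Socs3, the feedback inhibitor of gp130 signalling, was at -0.49, Socs1 was the lowest at -0.61 and Cish was at -0.28. The kinase Pim1 (-0.10), the NF-kB cofactor Bcl3 (-0.07) and the survival factor Mcl1 (-0.14) lay near 0. Higher values were seen for Myc at 0.90, Junb at 0.44 and Cebpb at 0.43. The acute-phase gene Saa3 was at -0.55 and Lrg1 at -0.27, and the separate list of serum amyloid and epithelial oxidase genes had a median of 0.06 over 5. Socs2 was at 0.05 by its brightest probe and at -1.53 by another.

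Among all lists, 7 of the 57 gene lists with at least 5 measured members had a median at least 0.5 away from that of all genes. The medians of the pancreatic acinar enzymes and the cholesterol synthesis genes were above it. The medians of the stefin A, B cell, fibroblast, enteroendocrine and erythroid lists were below it. Of these the fibroblast, enteroendocrine and erythroid lists had measured members on both sides of 0. In 22 of the 57 lists no member passed 2-fold.

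**Figure D2:**
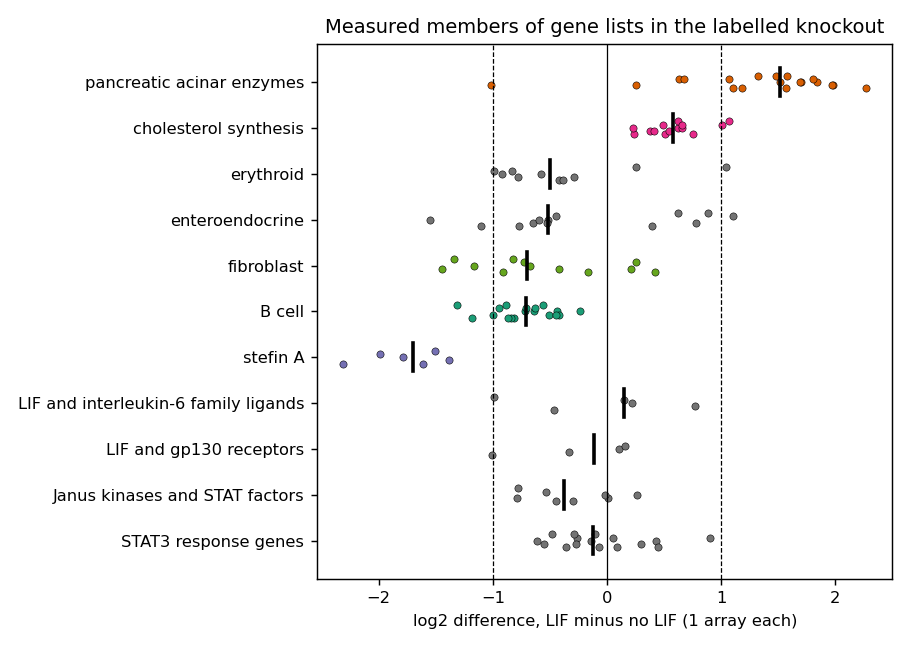
Log2 difference (LIF minus no LIF, x axis) of every measured member of the 7 lists that stood apart and of the 4 lists of the LIF pathway (y axis). Each point is 1 gene, the thick bar is the list's median, and the dashed lines mark 2-fold. The acinar median is 1.52 and that of stefin A is -1.70, while the medians of the 4 LIF pathway lists lie between -0.37 and 0.15.

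Digestive enzymes of the exocrine pancreas were the group with the highest median. Acinar cells of the pancreas make these enzymes and their inactive precursors, and the genes serve as markers of that cell type. Of 29 listed genes 25 were on the array and 19 were measured. At least 2-fold higher with LIF were 15 of the 19, against 3.42% of all measured genes, and 1 was at least 2-fold lower. The median difference was 1.52 and the range -1.02 to 2.27. A further 3 genes were well above background only with LIF: Cela1 (elastase 1) was at least 4.60-fold higher, and the lower limits were 2.30-fold for Pnliprp1 and 1.47-fold for Cela2a. For such a bound the dim array enters with its dimmest value well above background, or with the probe's own value where that is higher.

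The serine protease precursors had the highest median of these roles, 1.70, with 6 of 7 past 2-fold. Prss1, which encodes cationic trypsinogen, was at 1.47 and -1.93 in wild type without and with LIF, and at 2.00 and 3.97 in the labelled knockout without and with LIF, a 3.92-fold difference in the labelled knockout. Its second probe gave 1.17. The wild-type LIF value of this probe was not well above background. Anionic trypsinogen Prss2 was at 1.49, -2.52, 1.80 and 3.49 in the same order of arrays, again not well above background on the wild-type LIF array. The trypsinogens Try4 and Try5 had differences of 1.84 and 1.80. Trypsinogen genes are near copies of each other, so their probes may share transcripts and do not count as separate readings. Chymotrypsinogen Ctrb1 was at 0.23, 1.51, 1.84 and 3.54, higher with LIF in both genotypes. Cela3a, an elastase, was 1.52 higher, while chymotrypsin-like Ctrl was 0.68 higher and did not pass.

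All 3 carboxypeptidases passed 2-fold. Cpb1 was at 4.80 and 2.88 in wild type without and with LIF, and at 4.28 and 6.27 in the labelled knockout without and with LIF, so the labelled knockout with LIF had the highest level of the 4 arrays. Cpa1 differed by 1.33. Among the fat-digesting enzymes the pancreatic lipase Pnlip had the largest difference of the list, with levels of 0.99, -0.74, 0.49 and 2.76, or 4.83-fold in the labelled knockout. Colipase, Clps, was 0.63 higher by its brightest probe and 1.74 by its other. Cel, the bile salt-stimulated lipase, went the other way at -1.02 and was the only measured member below 0. The amylase Amy2a5 had levels of 6.54, 4.95, 6.65 and 8.22, and its second probe gave a difference of 1.91. Rnase1 was 1.48 higher.

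Proteins of the zymogen granule were mixed. Gp2, a granule membrane glycoprotein, was 1.58 higher, the trypsin inhibitor Spink1 1.19 and the pancreatic stone protein Reg1 1.07, but syncollin (Sycn) only 0.25. In wild type the same list had a median of -0.76 over 16 measured genes, beside 0.58 for all genes there. Past 2-fold were 6 on the higher and 8 on the lower side, against 34.9% and 13.5% of all genes measured in wild type. Spink1 was one of the higher genes there, at 4.44 without and 7.59 with LIF. Transcription factors that keep the acinar state were read less fully. Of 5 listed, 3 were measured with a median of 0.60, and Gata4, which is expressed outside the pancreas too, was 1.59 higher. Hormones and factors of the pancreatic islets did not move with the enzymes. Their 4 measured members of 9 had a median of -0.49. The median log2 level of the measured acinar enzymes was 1.54 and 1.25 in wild type without and with LIF, and 2.34 and 3.97 in the labelled knockout without and with LIF, so their RNA was present on all 4 arrays. The source of this RNA was not tested.

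The size of the acinar difference was smaller with normexp on the median signals, a setting that changes both the input signal and the background model. There 0 of the 19 genes were at least 2-fold higher, either with an offset or without, although the list's median stayed above that of all genes, by 0.61 with an offset of 50 and by 0.56 without one. When the slope of the difference with brightness was also removed, 13 genes were past 2-fold and the median lay 1.31 above that of all genes.

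Because these genes moved together, the 250 bases before the start of 3 of them are shown, from RefSeq with assembly GRCm38.p6, 5′ to 3′ on the strand of the gene. They come from a serine protease, the amylase and the lipase, at chr6:41458680-41458929 (plus strand), chr3:113258700-113258949 (minus strand) and chr19:58670115-58670364 (plus strand). Capitals mark TATAAA, the TATA box core, and CACCTG, an E-box of the kind bound by basic helix-loop-helix factors, on either strand.
Prss1: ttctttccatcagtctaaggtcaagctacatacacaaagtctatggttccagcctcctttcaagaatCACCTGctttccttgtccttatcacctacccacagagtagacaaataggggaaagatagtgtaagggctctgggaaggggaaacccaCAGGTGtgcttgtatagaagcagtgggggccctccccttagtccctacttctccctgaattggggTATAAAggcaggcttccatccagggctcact
Amy2a5: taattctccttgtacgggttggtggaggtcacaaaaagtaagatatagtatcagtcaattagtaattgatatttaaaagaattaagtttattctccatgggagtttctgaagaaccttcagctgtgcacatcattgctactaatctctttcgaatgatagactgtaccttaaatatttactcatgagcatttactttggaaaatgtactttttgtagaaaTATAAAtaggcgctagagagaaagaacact
Pnlip: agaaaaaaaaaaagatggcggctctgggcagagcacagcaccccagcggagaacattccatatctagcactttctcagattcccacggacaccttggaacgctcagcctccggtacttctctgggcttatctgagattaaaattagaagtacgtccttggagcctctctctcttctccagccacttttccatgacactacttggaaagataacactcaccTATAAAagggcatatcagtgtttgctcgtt

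All 3 windows hold TATAAA close to the start, and Prss1 holds CACCTG once on each strand. Promoters were matched for 21 of the 25 acinar genes on the array. TATAAA was present in 8 of the 21 and in 12.4% of all 32851 promoter windows of this length, and CACCTG in 11 of the 21 and in 17.2% of all windows. A match describes the letters only.

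The stefin A genes were lower with LIF as a whole. Stefins are inhibitors of cysteine proteases such as cathepsins, and in the mouse this cluster of near-identical genes is expressed strongly in neutrophils and other myeloid cells. Of 7 listed genes 6 were measured, and all 6 were at least 2-fold lower with LIF, against 2.93% of all measured genes. The median difference was -1.70. The remaining gene, Csta1, was well above background only without LIF and was at least 1.41-fold lower.

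Stfa3 had the largest difference of the group. Its level was 0.41 and 0.17 in wild type without and with LIF, and 6.24 and 3.93 in the labelled knockout without and with LIF, so that the DSS array of the labelled knockout stood far above both wild-type arrays and the LIF array lay between. Stfa2 followed the same pattern at 2.24, 2.71, 7.17 and 5.18, and Stfa1 at 1.57, 1.20, 6.30 and 4.52. For Stfa2l1 the levels were 3.73, 3.42, 7.21 and 5.70. Csta2 was read by a probe spotted 10 times and was at 4.77, 4.50, 8.43 and 6.82. The smallest difference was that of Csta3, at 0.15, 0.38, 2.31 and 0.93. On the array with LIF all 6 genes were thus below the labelled knockout without LIF and above both wild-type arrays. Wild type itself showed a median LIF difference of -0.26 for these genes, beside 0.58 for all genes there. Under all alternatives run the list's median stayed below that of all genes, and the smallest distance was 1.59.

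Other genes of neutrophils did not share this shift. Of 26 neutrophil genes listed 20 were measured, with a median of 0.03. Against 6.35% of all measured genes 1 member passed 2-fold, the chitinase-like gene Chil3, at -1.42. Chil3 was at 0.24 and 1.81 in wild type without and with LIF, and at 4.57 and 3.14 in the labelled knockout without and with LIF. The calprotectin subunits, which are abundant in neutrophils, stayed close, with S100a8 at 10.75 without and 10.18 with LIF and S100a9 at 9.36 and 9.43. Macrophage and monocyte genes had a median of 0.06 over 14 measured members, with Fcgr1, the high-affinity IgG receptor, 1.38 higher.

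The stefin A promoters are shown because the genes moved together and are near copies, which limits how far their probes can be told apart. The windows are the 250 bases before the start, from RefSeq with assembly GRCm38.p6, at chr16:36276898-36277147 (plus strand) for Stfa1, chr16:36408364-36408613 (minus strand) for Stfa2, chr16:36455393-36455642 (minus strand) for Stfa3 and chr16:36156561-36156810 (plus strand) for Stfa2l1. Capitals mark GAGGAA, the core of a site for ETS factors such as PU.1, and CCAAT, the CCAAT box, on either strand.
Stfa1: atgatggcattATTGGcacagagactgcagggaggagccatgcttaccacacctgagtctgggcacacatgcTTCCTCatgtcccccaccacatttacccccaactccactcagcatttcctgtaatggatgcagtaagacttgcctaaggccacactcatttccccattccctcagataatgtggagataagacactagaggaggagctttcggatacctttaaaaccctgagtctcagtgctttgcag
Stfa2: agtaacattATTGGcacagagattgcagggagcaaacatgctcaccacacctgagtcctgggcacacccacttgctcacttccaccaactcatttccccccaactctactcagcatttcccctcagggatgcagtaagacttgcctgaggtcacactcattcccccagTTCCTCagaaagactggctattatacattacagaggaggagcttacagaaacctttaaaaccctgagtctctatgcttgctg
Stfa3: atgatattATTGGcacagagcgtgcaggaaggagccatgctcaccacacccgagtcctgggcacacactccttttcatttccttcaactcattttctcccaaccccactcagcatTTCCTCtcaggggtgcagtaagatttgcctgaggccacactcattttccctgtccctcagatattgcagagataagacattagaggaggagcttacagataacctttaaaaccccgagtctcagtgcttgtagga
Stfa2l1: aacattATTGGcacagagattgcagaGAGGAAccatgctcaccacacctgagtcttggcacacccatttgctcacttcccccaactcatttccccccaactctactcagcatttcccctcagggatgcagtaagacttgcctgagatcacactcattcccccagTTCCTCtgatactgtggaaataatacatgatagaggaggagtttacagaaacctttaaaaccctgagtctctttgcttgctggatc

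Between these 4 windows the identity ran from 82.2% for Stfa2 with Stfa3 to 92.3% for Stfa2 with Stfa2l1, where 227 of 246 aligned bases were the same. All 4 windows hold CCAAT once, near their upstream end. GAGGAA was present in 5 of the 7 stefin A promoters and in 23.3% of all 32851 windows, and CCAAT in 5 of the 7 and in 33.8% of all windows. Because the 4 windows shown are so alike, their matches do not count as separate. Whether the probes of single stefin genes read 1 gene or several is not known here, so the level of any single member is uncertain.

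**Figure D3:**
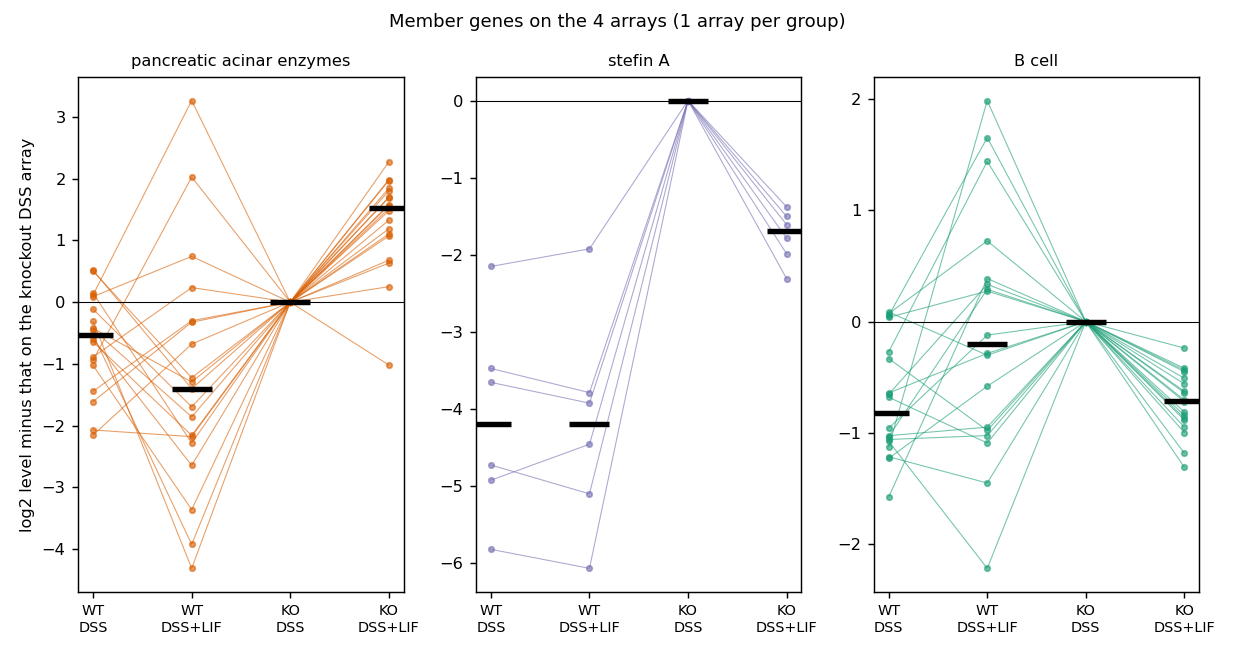
Log2 level of each measured acinar enzyme, stefin A and B cell gene on the 4 arrays (x axis), drawn relative to its level on the DSS array of the labelled knockout (y axis). Lines join the values of 1 gene and bars are medians. All 6 stefin A genes lie below 0 on the other 3 arrays, 18 of 19 acinar genes lie above 0 with LIF in the labelled knockout, and all 18 B cell genes lie below 0 there.

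Genes of B cells were lower with LIF in every measured case, by modest amounts. All 22 listed genes were on the array and 18 were measured, and the 18 differences ran from -1.31 to -0.24 with a median of -0.71. At least 2-fold lower were 2 of the 18, against 2.93% of all measured genes. Pou2af1, which encodes the B cell coactivator OBF-1, was at 3.79 and 4.44 in wild type without and with LIF, and at 5.02 and 3.71 in the labelled knockout without and with LIF, a 2.48-fold lower level with LIF. Cd72, an inhibitory co-receptor of B cells, was at 0.09, -0.32, 0.77 and -0.41 and its second probe gave -1.63.

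By role, the median was -0.81 for 7 genes of the antigen receptor and its signalling, -0.56 for 7 surface and survival receptors and -0.87 for 3 transcription factors. Cd79b, a signalling chain of the B cell receptor, was at 2.23 without and 1.23 with LIF. The adaptor Bank1 was 0.81 lower by its brightest probe but 0.30 higher by its other probe. The inhibitory receptor Cd22 was at -0.71 and Ms4a1, which encodes CD20, at -0.64. The survival receptor Tnfrsf13c (the BAFF receptor) was at -0.45 and the co-receptor Cr2 (complement receptor 2) at -0.44, while Fcer2a, the low-affinity IgE receptor, was at -0.95. The identity factor Pax5 was at -0.63 and Spib at -0.87. Cd79a was well above background only without LIF and at least 1.59-fold lower, while Cxcr5 was well above background only with LIF and at least 1.22-fold higher, so 1 of the listed genes went the other way. In wild type the same 18 genes had a median of 0.50, beside 0.58 for all genes there. With normexp the list's median lay 0.34 (offset 50) and 0.50 (no offset) below that of all genes, and 0.30 below after removal of the brightness slope as well.

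Plasma cells, the antibody-secreting stage, were read from 9 genes with a median of -0.44 and 0 past 2-fold, among them Mzb1, an endoplasmic reticulum chaperone of antibody secretion, at -0.92. T cell genes had a median of -0.08 over 16 measured members, of which 7 were above 0. Cd3d was the only one past 2-fold, at 0.67 without and -0.37 with LIF, whereas Cd3e differed by 0.44 in the other direction. Regulatory T cell genes were mixed, with a median of -0.34 over 10. Foxp3, the defining factor, was at 0.90 and -0.02 in wild type without and with LIF, and at -0.34 and -1.48 in the labelled knockout without and with LIF, so it was lowest on the last array. Lrrc32, which presents latent TGF-beta on these cells, was 2.12 lower, and Entpd1 (CD39) 1.02 higher. Th1 and interleukin-12 response genes, which STAT4 serves, had a median of -0.30 over 9 members with 0 past 2-fold. Cytotoxic granule genes had a median of -0.34 over 9 and natural killer receptors -0.05 over 8. Of 17 measured chemokines 12 were below 0, with a median of -0.16, and 6 more were well above background only without LIF and 1 only with it. Over all genes 847 were of the first kind and 1009 of the second. The counts past 2-fold in this paragraph are to be read beside the 6.35% of all measured genes.

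Fibroblast genes were lower with LIF for the most part. Of 18 listed genes 12 were measured, 9 of them below 0, with a median of -0.70 and a range of -1.44 to 0.42. At least 2-fold lower were 3 of the 12, against 2.93% of all measured genes. Igfbp5, a secreted binder of insulin-like growth factors, was at 0.95 and 0.15 in wild type without and with LIF, and at 3.34 and 1.89 in the labelled knockout without and with LIF. Pdgfrb, the PDGF receptor of pericytes and fibroblasts, was at -1.37, -1.14, 0.57 and -0.77, and the matrix protein Fbln2 at -1.52, -0.65, 1.38 and 0.22. For these 3 genes the DSS array of the labelled knockout was the highest of the 4. Decorin (Dcn) was at -0.91, Fstl1 at -0.82, fibronectin (Fn1) at -0.73 and lumican (Lum) at -0.68. Igfbp4 at 0.42, Mfap5 at 0.26 and Sparc at 0.21 were the members above 0, and the second probe of Sparc gave -0.26. Mgp, which inhibits calcification of matrix, was well above background only without LIF and at least 2.02-fold lower, as were Serpinf1 at 1.77-fold or more and Clec3b at 1.15-fold or more.

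Other stromal lists were read from fewer members. Single genes of smooth muscle and vessels were lower: Tagln (transgelin) was at 1.28 and 4.39 in wild type without and with LIF, and at 3.42 and 1.96 in the labelled knockout without and with LIF, and endothelial Ramp2 was 1.53 lower. Of 12 smooth muscle genes 4 were measured, and of 19 endothelial genes 5, all below 0 with a median of -0.21. Matrix metalloproteinases and their inhibitors had a median of 0.05 over 8. Collagens showed no common direction, with 10 of 43 measured and a median of -0.03. With normexp at an offset of 50 the fibroblast median lay 0.42 below that of all genes, and 0.21 below with the brightness slope removed and no offset.

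Cholesterol synthesis genes were higher in every measured case, again by small amounts. Of 22 listed 14 were measured, with differences of 0.23 to 1.07 and a median of 0.58. At least 2-fold higher were 2 of the 14, against 3.42% of all measured genes. One of them was Lss, which closes the sterol ring, at -1.41 and -3.78 in wild type without and with LIF, and at -1.82 and -0.82 in the labelled knockout without and with LIF. On the wild-type LIF array it was not well above background. The median was 0.51 for 7 genes from the mevalonate to the squalene steps, 0.69 for 4 genes of the later ring steps and 0.65 for 3 genes of uptake and regulation. Other members differed less: Msmo1 was at 2.50 without and 3.11 with LIF, and Hmgcs1 at 4.17 and 4.41. Insig1, Srebf2, Mvd, Mvk, Cyp51 and Dhcr7 were not well above background on either array. In wild type the list had a median of 0.11, beside the same 0.58. The list's distance from all genes was 0.13 and 0.09 with normexp at an offset of 50 and without one, and with the brightness slope of the processed signal removed 0 members passed 2-fold.

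Enteroendocrine genes had a median of -0.52 without a common direction, since 5 of 13 measured members were above 0. Tph1, the enzyme of serotonin synthesis in enterochromaffin cells, was at 0.71 without and -0.84 with LIF, and Chgb, a granule protein, at 1.80 and 0.70. Chga, its partner, was well above background only without LIF and at least 2.93-fold lower. Gcg, the proglucagon gene, went the other way, at -1.51 without and -0.40 with LIF, and Ghrl, the ghrelin gene, was 0.88 higher. The sign of this list turned with normexp without offset, where its median lay 0.12 above that of all genes. Erythroid genes had a median of -0.50 over 10 measured members, 8 of them below 0. The haemoglobin genes Hba-a1 and Hbb-b2 were at -0.92 and -0.99 and Hbb-bt at -0.39, while Hbb-bs was at 0.26. These globin genes are close copies, so their probes may share transcripts. The transferrin receptor Tfrc, which dividing cells of other types express too, was 1.05 higher by 1 probe and 0.05 by another.

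Epithelial genes were somewhat higher. Of 30 measured identity and junction genes 24 were above 0, with a median of 0.35. The transcription factor Klf5 (1.24) and Epcam (1.04) were among those at least 2-fold higher, and the splicing factor Esrp1 at least 2-fold lower at -1.32. The median of this list turned to 0.04 below that of all genes with normexp without offset. Goblet cell genes had a median of 0.23 over 11, with Atoh1, the factor of secretory cells, at -0.19 without and 1.08 with LIF, and Fcgbp, a mucus protein, at 0.25 and 1.47. Paneth cell alpha-defensins lay in a narrow band from -0.48 to -0.10, all 12 below 0. In wild type the median difference of 11 of these genes was 7.80. Whether the probes of single alpha-defensins read 1 gene or several is not known here. Of the other Paneth and Reg genes Reg4 was 1.36 higher and Itln1 1.04 lower.

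The 12 highest and 12 lowest single genes, chosen by a rule on brightness and processing, held 3 pancreatic enzymes on the higher and 1 stefin on the lower side. The scanner error of their differences was between 0.20 and 0.35. Pde1b, a calmodulin-dependent phosphodiesterase, had the highest value at 3.59, with levels of 3.19 without and 6.78 with LIF. Ncbp3, a nuclear cap-binding protein, was at 7.95 and 6.33 in wild type without and with LIF, and at 5.02 and 8.16 in the labelled knockout without and with LIF. The mean over its 3 measured probes was lower, 1.77. The cell-cycle factor Mybl2 was at 2.81, 1.28, 2.07 and 5.02.

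Ccr9, the receptor that brings lymphocytes to the small intestine, was at 3.01 and -1.11 in wild type without and with LIF, and at 2.11 and 4.32 in the labelled knockout without and with LIF. Of 14 measured chemokine receptors it was the 1 past 2-fold, a share near the 6.35% of all measured genes. Ube2s, a ubiquitin-conjugating enzyme of mitotic exit, was 2.06 higher, Sh3bp5 2.07, Rapsn (rapsyn of the neuromuscular junction) 2.08, Wdr53 2.17 and the olfactory receptor gene Olfr64 3.03. Pnlip, Cpb1 and Prss1 completed the 12 higher genes.

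Nudt13, a Nudix hydrolase, had the lowest value at -3.98, with levels of -2.25 and -2.63 in wild type without and with LIF, and 2.06 and -1.92 in the labelled knockout without and with LIF. On the wild-type LIF array it was not well above background, and the DSS array of the labelled knockout was the brightest of the 4. Tat, tyrosine aminotransferase, was at -0.66, 1.81, 2.15 and -0.88, and Sh3bp4 at -1.11, 1.40, 1.97 and -0.82. Lrrc32, named above with the regulatory T cell genes, was at -1.05, 2.50, 1.52 and -0.60. Csprs differed by -2.47, Ubap2l by -2.35, Stfa3 by -2.31, the gap junction gene Gjd2 by -2.23, Arid3b by -2.16, Pate12 by -2.16 and Fam24b by -2.08. Gucy2f, a guanylate cyclase known from photoreceptors, differed by -2.83. Of the 24 genes 20 had only 1 measured probe, so agreement between probes was not available for them.

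A second probe often gave another size. Over 1632 genes with a second measured probe the Pearson correlation of the differences of both probes was 0.254, across genes on the same arrays. For genes past 2-fold 76 other measured probes were available, of which 55 had the same sign and 13 were past 2-fold in that direction. Spots of the same probe agreed closely, with a median SD of 0.119 over 170 probes. A 2-fold value of a single probe is therefore less certain than the scanner error alone would give.

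The differences also moved with brightness. In 10 bands of equal size the median difference went from 0.14 in the dimmest to -0.14 in the brightest band. The share of a band's genes past 2-fold was 2.96% in the dimmest band and 5.41% in the brightest. It was highest, at 11.8%, in band 3 counted from the dimmest. The cytosolic ribosomal proteins and respiratory chain subunits, which are bright, had medians of -0.15 over 80 genes and -0.17 over 78. With normexp the slope was steeper, from 0.92 to -1.57 without an offset.

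**Figure D4:**
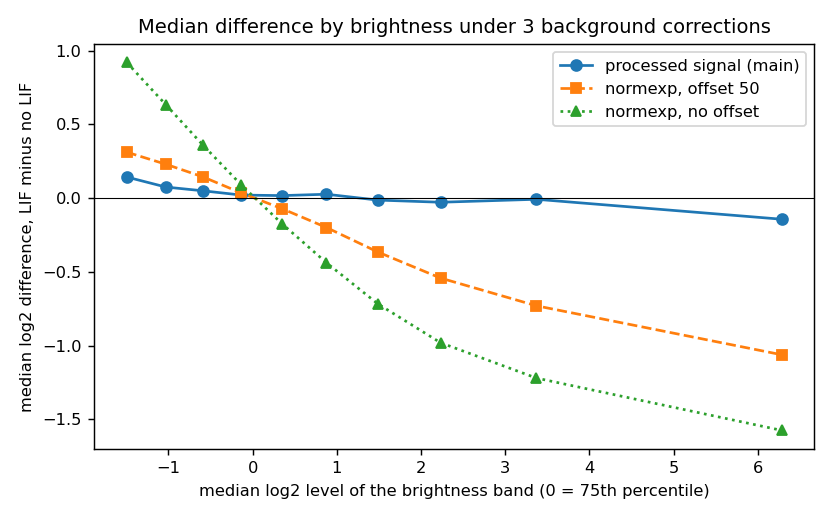
Median log2 difference (LIF minus no LIF, y axis) of the measured genes in 10 bands of equal size, against the median log2 level of each band (x axis), for the processed signal and for normexp with an offset of 50 and without one. The processed signal runs from 0.14 to -0.14 and normexp without offset from 0.92 to -1.57.

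Levels with LIF were set beside those of wild type with DSS, to describe where the array with LIF lies. Of all measured genes 55.0% were nearer to the wild-type DSS level with LIF than without. For genes at least 2-fold lower with LIF it was 231 of 287 (80.5%), and for genes at least 2-fold higher 208 of 334 (62.3%). The arrays of the labelled knockout enter both the distances and the difference by which these genes were chosen. These shares are therefore not independent of the choice of genes. All 6 stefin A genes, 14 of 18 B cell genes and 9 of 12 fibroblast genes were nearer with LIF. Of the acinar enzymes 1 of 19 was nearer, and their median level was already above that of wild type with DSS without LIF.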

How the data were processed

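RNA of lamina propria lymphocytes was measured on 4 one-colour (Cy3) Agilent arrays, 1 per group. The authors deposited spot intensity values from Agilent Feature Extraction 11.0.1.1, per the file headers. The submitters' processing notes name version 9.1. The processed signal is an intensity after background subtraction, per the file headers. The deposited files also hold spot flags of other kinds (control, outlier, saturated, well above background), and the authors deposited a table of log2 values of the same arrays, whose normalization no source used here states.

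Control spots and outlier spots (164 to 241 per array) were left out. No spot was saturated. Log2 processed signals were reduced by the array's 75th percentile, over 43020 spots, and averaged over spots of a probe, which passed the background filter when 50% or more of its spots were marked well above background. RefSeq accessions named 27178 of 39347 probes, with a table of assembly GRCm38.p6, and gave 20625 genes. The brightest probe stood for a gene. No fit, replicate or p-value was possible with 1 array per group, and the number of arrays limits the precision. The scripts were tested on simulated data.

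The rule for single genes took the 12 highest and 12 lowest differences past 2-fold with a mean log2 level of at least 0, the same direction under normexp without offset, quantile scaling and removal of the brightness slope, the same sign in every measured probe, and no clone or antigen receptor segment name. Members of the LIF pathway lists, members past 2-fold of lists whose median lay 0.5 or more from that of all genes, and Stat4 were named too. Some other members and genes were named after their values were seen. A few list members are counted in their lists and not reported here singly. The members and the 69 lists were chosen with earlier results of these data known.

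The 9 other settings were normexp on the median signals (no mean signal is in the files used) with an offset of 50 or without, quantile scaling, scaling to probes well above background, removal of the brightness slope (loess span 0.3), no background filter, a minimum level, the mean of probes and the authors' log2 values. Normexp without offset with the slope removed was added after seeing the data. R 4.3.3 with limma 3.58.1 ran normexp, and Python 3.11.15 with pandas 2.3.3 and statsmodels 0.14.6 the rest.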

Additional observations from a re-analysis of the deposited data

Results flagged for a closer look

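For several results the LIF difference had opposite signs in the labelled knockout and in wild type. Each rests on 1 array per group, the difference between the genotypes was not tested, and the wild-type LIF array was dimmer than the others, with a 75th percentile of 23.7 against 42.9 to 123.3. The values below are the log2 difference in the labelled knockout minus that in wild type. The single genes came from the 12 highest and 12 lowest differences of the labelled knockout. That difference enters both the choice and the value, so the size of the values is not independent of the choice. For the acinar list its median was first taken relative to that of all measured genes of the genotype, which was 0.00 in the labelled knockout and 0.58 in wild type, and for single genes nothing was subtracted.

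The pancreatic acinar enzymes gave 2.85, from a relative median of 1.51 in the labelled knockout and -1.34 in wild type. Among the single genes that were higher with LIF in the labelled knockout, the values were 4.75 for Ncbp3, 4.48 for Mybl2, 4.00 for Pnlip, 6.33 for Ccr9, 3.80 for Wdr53, 7.40 for Sh3bp5 and 3.90 for Cpb1. Pnlip and Cpb1 belong to the acinar list. Among the genes that were lower, the values were -5.49 for Tat, -5.30 for Sh3bp4, -6.03 for Csprs, -4.87 for Ubap2l, -3.44 for Gjd2, -4.39 for Arid3b, -5.67 for Lrrc32 and -4.41 for Fam24b.

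Probes without a gene name were outside the comparisons. Of 4304 such probes measured on both arrays of the labelled knockout, 335 were past 2-fold, 172 higher and 163 lower with LIF. Of the measured genes with a name 6.35% were past 2-fold, 3.42% higher and 2.93% lower.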

How the results depend on the processing

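With quantile scaling, scaling to probes well above background, removal of the brightness slope, the mean of probes and the authors' log2 values, the medians of the 7 lists that stood apart moved little. The counts of genes past 2-fold stayed within 1.5 times, and moved furthest with the authors' values, to 374 higher and 424 lower. Of the genes past 2-fold, 288 of 335 higher and 277 of 287 lower genes were shared with quantile scaling, and 330 and 276 with the authors' values. The number of genes at least 2-fold higher was 6 with normexp at an offset of 50, 2526 without a background filter, 160 with a mean level of at least the 75th percentile and 66 with normexp without offset and the slope removed, which was chosen after seeing the data. The number lower was 862, 1134, 162 and 62 under the same 4 settings and 2349 with normexp without offset. The median of all genes was -0.12 with normexp at an offset of 50, -0.29 without offset and 0.15 without a background filter.

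List medians relative to all genes are given for normexp with an offset of 50, without offset, and without offset with the slope removed, in that order. They were 0.61, 0.56 and 1.31 for the acinar enzymes, -0.34, -0.50 and -0.30 for B cell genes, and 0.13, 0.085 and 0.32 for cholesterol synthesis. Enteroendocrine genes gave -0.0032, 0.12 (reversed) and -0.23. Fibroblast genes gave -0.42 and -0.21 in the first and last, erythroid genes -0.82 and -0.17 in the last 2, and stefin A -2.47 and -2.83 in the first 2. Without a background filter the medians were 0.43 for cholesterol synthesis, -0.15 for enteroendocrine and -0.85 for fibroblast genes, and at a mean level of at least the 75th percentile -0.38 for erythroid genes.

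Other list medians that turned, all of smaller size, are given for normexp with an offset of 50 and without: -0.31 and -0.56 for Paneth and Reg genes, -0.12 and -0.33 for stem cell genes, 0.20 and 0.56 for adipocyte genes, 0.017 and 0.056 for Th1 genes (0.058 at the minimum level), 0.045 and 0.0015 for regulatory T cell genes, and -0.20 and -0.44 for histones. Only without offset did dendritic cell genes (0.12) and epithelial genes (-0.038) turn.

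No paired analysis was possible because each group is 1 array, and for the same reason leaving out a replicate could not be done. The cause of these changes was not tested. All 24 single genes chosen by the rule kept their sign under the alternatives run. Of these the rule itself used 3. Its requirements on mean level and on the sign of every measured probe also fixed the sign under the minimum level and the mean of probes. Leaving out the background filter does not change the value of a measured gene, and scaling to probes well above background shifts all genes alike. Keeping the sign under these settings was therefore settled in advance. The sizes were less stable. Counted at the median SD of spots, 0.119, 23 of the 24 moved with normexp at an offset of 50. Without offset 21 moved, and 13 with the authors' values. At an offset of 50 Ccr9 was at 0.92 and Wdr53 at 0.65, both under 2-fold, while Stfa3 was at -3.03. Probes near background limit the reading: 1009 genes had only a bound on a higher and 847 on a lower level with LIF.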

Other observations

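Gene families named by a shared symbol root were scanned as a whole, and the ones below were picked by their values. Of 163 families with at least 8 measured members the kallikreins had the highest median difference, 0.53 over 17 genes, of which 12 were above 0. These are serine proteases, many of them of glands. Klk1, the tissue kallikrein, was at 2.39 and 0.96 in wild type without and with LIF, and at 0.80 and 2.02 in the labelled knockout without and with LIF. Klk1b3 was at 2.41, 1.28, 0.80 and 2.24 and Klk1b22 at 1.17, 0.31, -0.41 and 1.29, so that for these 3 genes the array with LIF lay near the level of wild type with DSS. The Klk1b genes are close copies and their probes may share transcripts. Klk7, a protease of the skin, was 1.81 lower. The galactosaminyltransferases (Galnt), which start mucin-type sugar chains, had 8 of 9 members above 0 and a median of 0.41, with Galnt5 1.58 higher.

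At the other end stood the Rgs genes, regulators of G protein signalling, with a median of -0.44 over 10. Rgs3 was at 0.48 and 1.41 in wild type without and with LIF, and at 2.14 and 0.33 in the labelled knockout without and with LIF. All 12 measured Ndufa genes, which encode subunits of respiratory complex I, were below 0, between -0.57 and -0.13, with a median of -0.33.

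Lists of dividing cells had medians above 0. The counts past 2-fold in this paragraph are to be read beside the 6.35% of all measured genes. Mitosis genes had a median of 0.34 over 11, with the proliferation marker Mki67 at -1.33 without and -0.28 with LIF, and 1 member past 2-fold. Replication-dependent histones had a median of 0.42, with 32 of 38 above 0, 2 at least 2-fold higher and 1 lower. DNA replication genes had a median of 0.16 over 20, with 14 above 0 and 1 past 2-fold. The immediate-early genes, which respond to handling of cells among other stimuli, had a median of -0.05 over 20, with 0 past 2-fold. Interferon-stimulated genes were near 0 too, with a median of 0.06 over 15 antiviral genes. Interferon-inducible GTPase genes had a median of -0.25, with 6 of 8 below 0, and Iigp1, at 1.26, was the 1 member past 2-fold.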
